A study of Homo sapiens with 6 samples.

Results

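The subject is the mRNAs for the proteins of the mitochondrial ribosome in PANC-1 cells, a long-established line from a human pancreatic ductal carcinoma. They were taken as the genes of the table whose symbol is MRPL or MRPS with a number and at most 1 further letter and which have a protein-coding transcript. That gave 78 of 58825 genes, 49 named for the large subunit (MRPL) and 29 for the small subunit (MRPS), and no symbol was repeated. The treated group held 3 libraries from cells treated for 48 h with CMR, a compound, at 8 µM, and the control group held 3 libraries from PANC-1 cells labelled control. Both groups were grown in DMEM with fetal bovine serum, and RNA was selected by poly(A). What the control cells received, the full name of CMR and whether separate cultures gave the libraries are not given in these sources. The p-values therefore set the difference between groups only against the spread of these libraries within groups, and that spread may be technical. In bulk RNA, fewer cells of a kind and less RNA per cell cannot be told apart.

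The mitochondrial ribosome translates the few mRNAs encoded by mitochondrial DNA, all of which specify membrane subunits of the oxidative phosphorylation complexes. Its RNAs are made in the mitochondrion, whereas its proteins are encoded in the nucleus, made in the cytosol and imported. Part of these proteins descend from those of bacterial ribosomes, and part have no bacterial counterpart and are called mitochondria-specific. The large subunit forms peptide bonds and the small subunit decodes the mRNA.

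Library totals ran from 66460535 to 70129221 counts with CMR and from 51147268 to 63811430 in control, of which the 78 genes took 0.402 to 0.453%. All 78 passed the filter on low counts, and the lowest count of any of them in any library was 185. The markers of the line (KRT7, KRT8, KRT18, KRT19, VIM and MUC1) were all detected, with a summed level of 1868 to 2837 normalised CPM with CMR and 6410 to 6891 in control, and the part of this difference in the results was not tested. The adipocyte list, checked because the protocol text names adipose, summed to at most 0.397 normalised CPM in any library, with LEP at 0 in all 6. The acinar, leukocyte, endothelial and fibroblast lists each summed to at most 1.21 in any library.

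Promoter windows of RefSeq (build GRCh38.p14, 250 bases before to 50 after a start) matched 69 of the 78 genes, with 85 windows. MRPL2, MRPL10, MRPL13, MRPL15, MRPL21, MRPL23, MRPL35, MRPS28 and MRPS36 were not matched. The 250 bases before the start are shown for the 2 called genes that rose most and the 2 that fell most among those with 1 listed start, because these genes went furthest apart under CMR. Capitals mark matches, on either strand, to any of 7 motifs. These are the letters CCGGAAG for ETS factors, the letters AAGATGGC for YY1, the letters GGGCGG for SP factors and the box CCAAT. The others are the E-box with the letters CACGTG, the composite site of C/EBP and ATF factors with the letters TGATGNAA, and the longer NRF1 site. The letters of none of these motifs contain those of another.
MRPL55, chr1:228109300-228109549, minus strand: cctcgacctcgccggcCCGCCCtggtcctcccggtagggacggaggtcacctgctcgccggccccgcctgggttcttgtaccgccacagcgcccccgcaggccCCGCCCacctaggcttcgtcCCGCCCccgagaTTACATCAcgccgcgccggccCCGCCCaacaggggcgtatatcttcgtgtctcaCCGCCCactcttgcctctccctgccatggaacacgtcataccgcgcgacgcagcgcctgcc
MRPS31, chr13:40771191-40771440, minus strand: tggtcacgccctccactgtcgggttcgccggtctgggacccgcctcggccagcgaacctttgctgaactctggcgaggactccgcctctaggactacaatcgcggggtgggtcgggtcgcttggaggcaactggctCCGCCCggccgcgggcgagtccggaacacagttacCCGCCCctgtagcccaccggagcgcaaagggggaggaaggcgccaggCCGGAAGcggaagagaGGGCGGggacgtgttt
MRPS24, chr7:43869518-43869767, minus strand: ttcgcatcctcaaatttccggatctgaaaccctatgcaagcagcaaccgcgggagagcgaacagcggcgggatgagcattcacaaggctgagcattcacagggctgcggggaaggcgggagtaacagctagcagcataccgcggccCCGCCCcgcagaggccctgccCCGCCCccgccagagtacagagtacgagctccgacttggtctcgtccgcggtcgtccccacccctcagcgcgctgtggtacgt
MRPL28, chr16:370539-370788, minus strand: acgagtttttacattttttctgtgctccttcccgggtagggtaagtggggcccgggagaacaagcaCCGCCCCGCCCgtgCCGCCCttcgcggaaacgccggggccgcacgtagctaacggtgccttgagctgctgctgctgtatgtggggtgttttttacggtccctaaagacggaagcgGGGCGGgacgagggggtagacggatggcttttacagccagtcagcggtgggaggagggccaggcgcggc
In MRPL55, which rose, the window held 5 matches to the SP letters and 1 to the C/EBP-ATF letters. In MRPS31, which also rose, it held 3 matches to the SP letters and 1 to the ETS letters. In MRPS24 and MRPL28, which fell, the printed stretch held matches to the SP letters only. In the 50 bases after the start, which are not printed, MRPL28 held 1 match to the ETS letters and MRPS24 held 1 to the YY1 letters.

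The letters AAGATGGC, a site bound by YY1, were found in 21 of the 69 genes (30.4%), against 5.95% of the 11581 tested genes with a window. They were spread evenly over the outcomes: 3 of 10 genes that rose, 4 of 13 that fell and 14 of 46 that were not called. In the 85 windows 16 of 24 matches (66.7%) began at or after the start, against 441 of 762 (57.9%) in windows of tested genes. The 30 bases around the match are shown for the 6 called genes that hold it and have 1 listed start, with the matched letters in capitals, because the same letters stood in genes that rose and in genes that fell. The number after each outcome is the distance of the match from the start, whose first base is 0.
MRPS30 (rose, 13 bases after), chr5:44808949-44808978, plus strand: aatcgcgggcaAAGATGGCggcggccaggt
MRPS10 (rose, 9 bases after), chr6:42217834-42217863, minus strand: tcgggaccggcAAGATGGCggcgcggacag
MRPS24 (fell, 19 bases after), chr7:43869480-43869509, minus strand: ccgcttggcccAAGATGGCggcctccgtgt
MRPS7 (fell, 19 bases after), chr17:75261887-75261916, plus strand: cgtggccagccAAGATGGCtgcccccgcag
MRPL20 (fell, 15 bases after), chr1:1407260-1407289, minus strand: ccgacccgggcAAGATGGCagcggcgctgc
MRPL36 (fell, at -35, before), chr5:1799854-1799883, minus strand: ccccccccgccGCCATCTTccttcctggca
The ETS letters were found in 30 of the 69 genes (43.5%), against 20.9% of tested genes. By outcome, they were in 6 of 10 genes that rose, 4 of 13 that fell and 20 of 46 that were not called. The CCAAT letters were found in 23 of the 69 genes (33.3%), against 42.6% of tested genes. They stood in 6 of 10 genes that rose, in 1 of 13 that fell and in 16 of 46 not called. This split was seen among 7 motifs and was not tested. The C/EBP-ATF letters were in 1 of 69 genes, MRPL55, against 2.82% of tested genes. The NRF1 letters were in 9 of 69 genes (13%), against 12.4% of tested genes. They were in 0 of 10 genes that rose, 1 of 13 that fell and 8 of 46 not called, and the E-box letters had the same counts. The SP letters were in 42 (60.9%, against 74.8%) and the E-box letters in 9 (13%, against 12.4%). By outcome, the SP letters were in 6 of 10, 7 of 13 and 29 of 46. A gene counted if any of its windows held the letters, and the tested genes had more windows each (16763 windows in 11581 genes). In the 85 windows against those of tested genes, the shares were 32.9% and 34.4% for CCAAT and 60.0% and 64.2% for SP. For ETS they were 38.8% and 15.7%, for YY1 27.1% and 4.36%, for NRF1 11.8% and 9.18%, and for the E-box 10.6% and 9.19%. For C/EBP-ATF they were 1.18% and 2.08%. A match is a description of letters and shows no binding.

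The question of the comparison was how the mRNAs of the mitochondrial ribosome, and of its large against its small subunit, differed with CMR. Most differed little. With CMR 12 of the 78 genes rose and 15 fell at an adjusted p under 0.05 in edgeR's quasi-likelihood test, and 51 were not called. The 27 called genes are 34.6% of the 78, where 38.6% of all 19200 genes tested were called, 20.5% higher and 18.1% lower. Only MRPL2 and MRPL55, both large-subunit genes, were called and changed at least 2-fold (2.56% of the 78, against 18.4% of all genes tested). The log2 fold change was within 0.5 of 0 in 65 genes (83.3%, against 44.9% of all genes). The median size of the log2 fold change was 0.28 over the 78 genes and 0.58 over all genes. The median log2 fold change was -0.05 against -0.01 over all genes. The groups did not overlap in 39 of the 78 genes (50.0%), where 53.9% of all genes tested did not overlap. FPKM are fragment counts scaled by the length of the gene and the size of the library. Of the 71 genes that averaged 5 FPKM or more, 26 were called (36.6%), where 56.7% of all tested genes at that level were called. At that level the log2 fold change was within 0.5 of 0 in 83.1% of the 71 genes, against 53.1% of all tested genes. Its median size was 0.28 against 0.46, and the groups did not overlap in 53.5% against 69.1%.

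**Figure D1:**
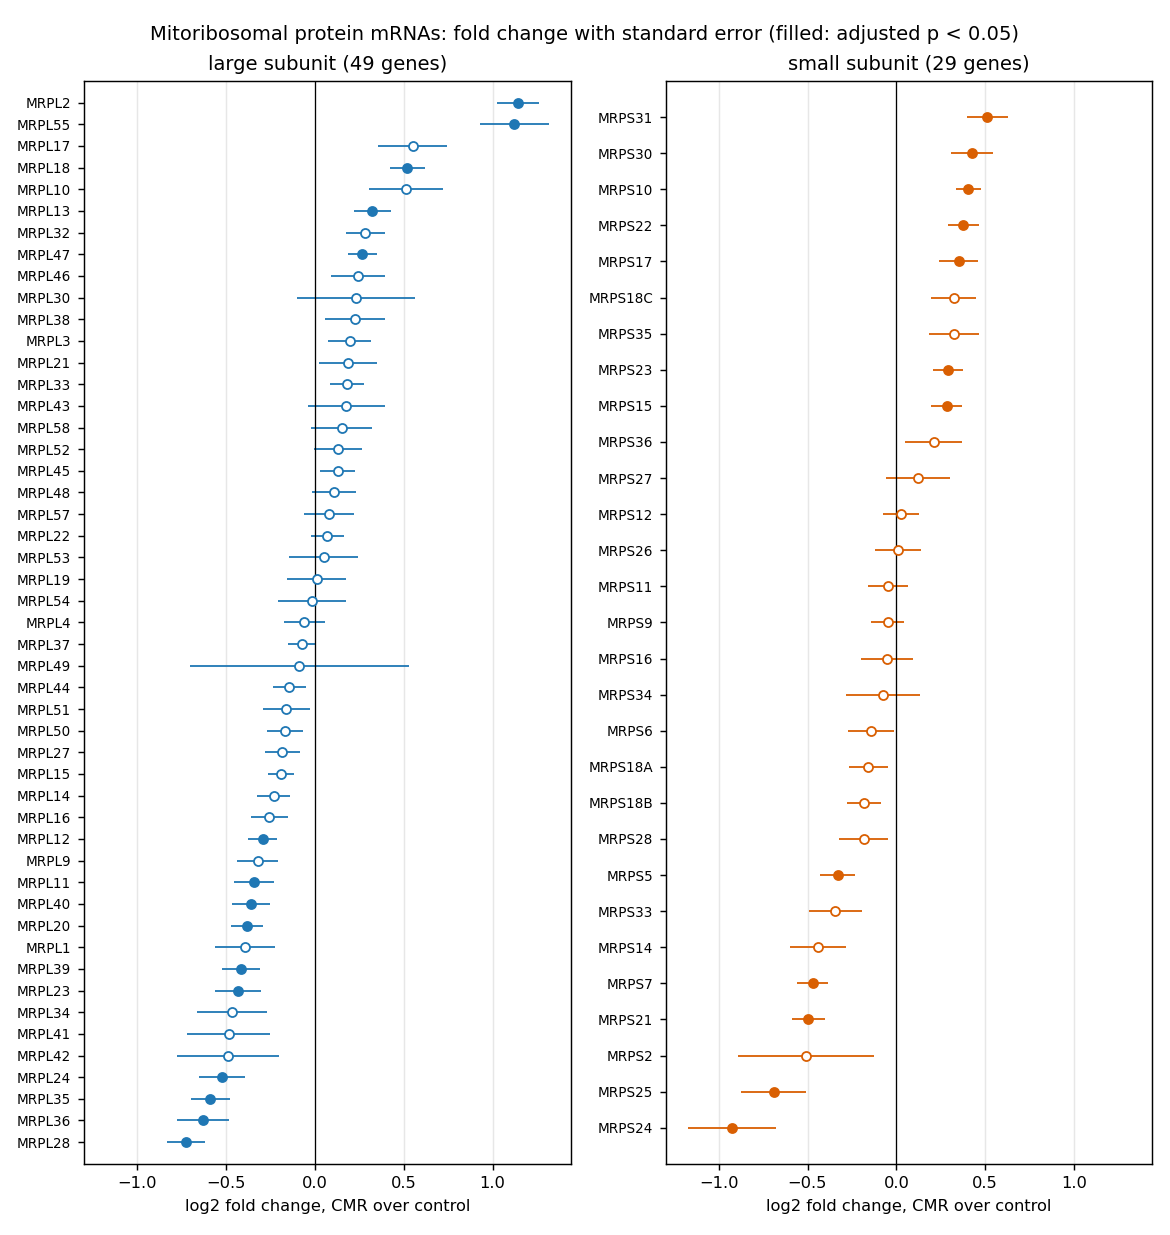
Log2 fold change of each mitoribosomal protein gene, CMR over control, with its standard error, for the 49 large-subunit genes (left) and the 29 small-subunit genes (right); filled points have an edgeR adjusted p under 0.05. All but MRPL2 and MRPL55 lie between -0.93 and 0.55.

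**Figure D2:**
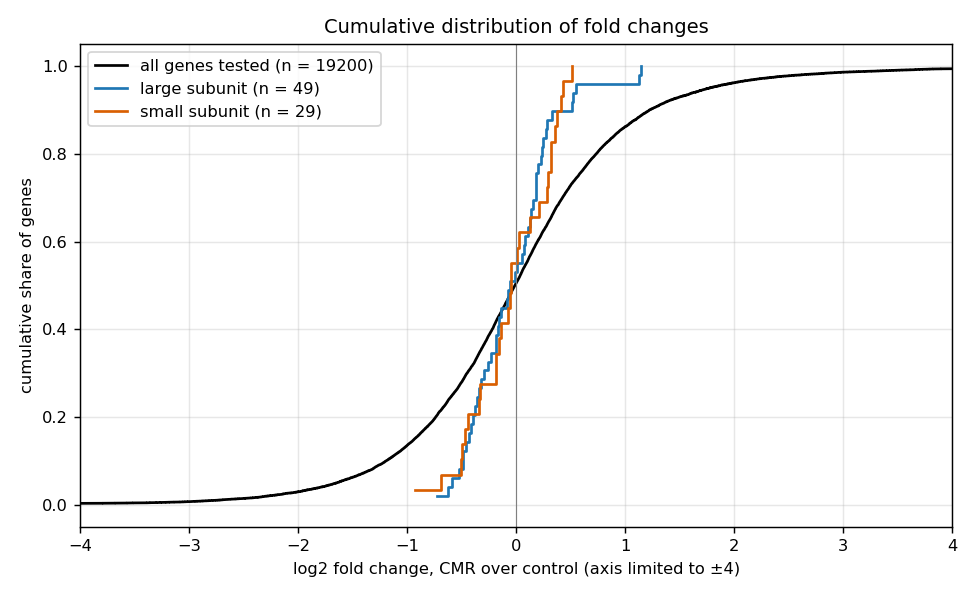
Cumulative share of genes by log2 fold change for all 19200 genes tested, the 49 large-subunit genes and the 29 small-subunit genes. Both subunit curves are steeper than that of all genes and cross the middle near 0, with medians of -0.06 and -0.05.

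The number of calls depended on single libraries. Leaving out CMR replicate 1 gave 31 called genes, CMR replicate 2 or CMR replicate 3 gave 19, control replicate 1 or control replicate 2 gave 11, and control replicate 3 gave 15. The call rate over all genes moved with them, from 28.1% without control replicate 1 to 38.9% without CMR replicate 1. Of the 12 genes that rose, 4 (MRPL2, MRPL18, MRPL55 and MRPS10) kept their call without any one library and under every other alternative. Of the 15 that fell, 5 did so (MRPL28, MRPL35, MRPL36, MRPS7 and MRPS21). None of the 27 called genes changed sign under any of the 15 alternatives. The split between higher and lower calls also depended on the scaling: upper-quartile scaling, under which the all-gene median went from -0.01 to -0.14, gave 5 of the 78 higher and 26 lower. Relative to the median of all genes, the median of the 78 was lower by 0.04 under either scaling.

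Summed over the subunit, levels overlapped between the groups. The 49 large-subunit genes summed to 2518, 2422 and 2634 normalised CPM in CMR replicates 1 to 3 and to 2650, 2559 and 2414 in control replicates 1 to 3. The 29 small-subunit genes summed to 1842, 1715 and 1892 with CMR and to 1782, 1765 and 1766 in control. The ratio of the large to the small sum was 1.39 ± 0.02 with CMR and 1.43 ± 0.06 in control (SD, n = 3), and the groups overlapped.

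**Figure D3:**
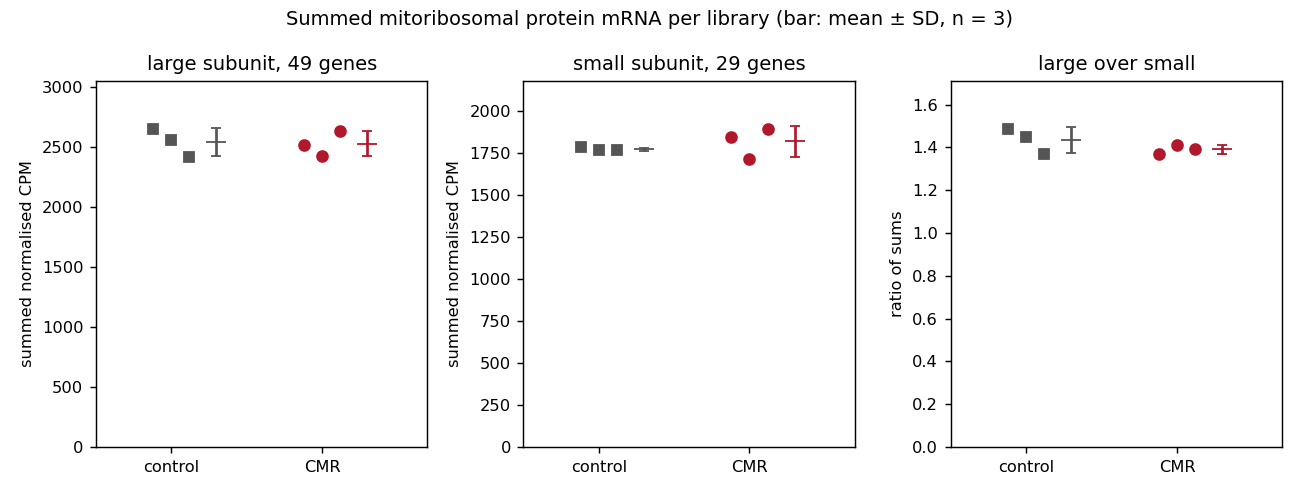
Summed normalised CPM of the large-subunit genes (left) and small-subunit genes (middle) and their ratio (right) in each library, with the mean and SD of 3 libraries beside the points. Control and CMR points overlap in every panel; the ratio runs from 1.37 to 1.41 with CMR and from 1.37 to 1.49 in control.

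Gene by gene, the large subunit had 5 genes higher and 10 lower of 49 (30.6% called) and the small subunit 7 higher and 5 lower of 29 (41.4% called). The median log2 fold change was -0.06 for the large and -0.05 for the small subunit. The subunits therefore had nearly the same median and differed in the split of their calls, a difference that was not tested. On the per-length scale the median FPKM over large-subunit genes was 13.4, 11.8 and 12.2 with CMR and 16.1, 13.8 and 15.5 in control. Over small-subunit genes it was 12.7, 11.6 and 11.6 with CMR and 12.5, 11.9 and 11.3 in control. The ratio of these medians was 1.02 to 1.05 with CMR and 1.16 to 1.37 in control, so by this measure the groups did not overlap, unlike the ratio of the sums. Each large-subunit median is, however, the FPKM of the gene in the middle of the order, and that gene changed between libraries. In library order it was MRPL28, MRPL38 and MRPL30 with CMR and MRPL36, MRPL10 and MRPL36 in control. The ratio thus depends in part on which gene stood in the middle, and its difference was not tested. MRPS30 and MRPS18A carry a small-subunit name but sit in the large subunit of the known structure, and MRPS36 is not part of it. Placing them so gave 6 higher and 10 lower of 51 large-subunit genes and 6 higher and 5 lower of 26 small-subunit genes.

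MRPL2, the homologue of the bacterial protein L2 beside the peptidyl transferase centre, had the largest rise. Its level was 58.3, 63.3 and 73.8 normalised CPM in CMR replicates 1 to 3 and 29.9, 30.1 and 28.4 in control replicates 1 to 3. Every CMR library was thus well above every control library (log2 fold change 1.14, SE 0.12; adjusted p = 0.000465 in edgeR). In the GRCh38 coordinates of the deposited table MRPL2 (ENSG00000112651) spans chr6:43054029-43059434, minus strand. Its span overlaps that of KLC4 on the other strand, which had 41.3% of its mean count and itself rose (log2 fold change 1.68, with edgeR adjusted p = 0.000478). Of the exonic bases of MRPL2, 373 (14.7%) are shared with KLC4, and the part of KLC4 reads in the result was not tested. MRPL55, a large-subunit protein that lies at the central protuberance, was the other gene past 2-fold. It had 12.5, 11.4 and 17.3 normalised CPM with CMR and 5.73, 6.47 and 6.73 in control (log2 fold change 1.12, SE 0.19; adjusted p = 0.00382 in edgeR). All CMR libraries exceeded all control libraries, at one of the lowest levels of the family. MRPL55 spans chr1:228106679-228109312, also minus strand.

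MRPL18, homologue of the bacterial protein L18 of the central protuberance, had 112, 115 and 125 normalised CPM with CMR and 88.0, 83.6 and 74.2 in control (log2 fold change 0.52, SE 0.10; adjusted p = 0.00542 in edgeR). The groups stood clearly apart in this abundant gene. MRPS10, homologue of the bacterial protein S10, had 195, 198 and 197 with CMR and 146, 146 and 152 in control. With a spread this narrow a log2 fold change of 0.41 ± 0.07 SE was called (edgeR adjusted p = 0.00351). MRPS31, a mitochondria-specific protein of the small subunit, had 23.7, 26.9 and 23.3 with CMR and 18.1, 16.6 and 17.1 in control (log2 fold change 0.51, SE 0.12; adjusted p = 0.0122 in edgeR). Its call was lost without control replicate 2 (edgeR adjusted p = 0.0533). The listed genes include unprocessed pseudogenes of MRPS31, whose sequences were not compared with it here. MRPS31P5, with 39.1% of the mean count of MRPS31, rose (log2 fold change 1.22). MRPS31P4, with 18.7%, was at 0.68 on that scale (edgeR adjusted p = 0.252). How the authors' counting divided reads among these copies is not known, so the value for MRPS31 is uncertain.

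MRPS30, which sits in the large subunit despite its name, had 59.0, 60.9 and 75.1 normalised CPM with CMR and 49.5, 46.6 and 48.9 in control (log2 fold change 0.43, SE 0.12; adjusted p = 0.0253 in edgeR). The groups did not overlap, but the call was lost without control replicate 1, 2 or 3 (edgeR adjusted p = 0.0703, 0.0882 and 0.0731). MRPS22, a mitochondria-specific protein in which mutations cause combined oxidative phosphorylation deficiency, had 74.2, 80.2 and 79.8 with CMR and 63.1, 57.7 and 59.7 in control (log2 fold change 0.38, SE 0.09; adjusted p = 0.0130 in edgeR). That call was lost without control replicate 2 or 3 (edgeR adjusted p = 0.0590 and 0.0516). The span of MRPS22 overlaps that of COPB2 on the other strand, which had 842% of its mean count and rose (log2 fold change 1.60), with 1.6% of its exonic bases shared, and the part of those reads was not tested. MRPS17, homologue of the bacterial protein S17, had 48.2, 45.3 and 53.4 with CMR and 41.2, 36.6 and 37.3 in control (log2 fold change 0.35, SE 0.11; adjusted p = 0.0388 in edgeR). Its call held in 1 of the 6 fits that each left out 1 library, that without CMR replicate 2. Without CMR replicate 1 or 3 the edgeR adjusted p was 0.0594 and 0.0853, and without control replicate 1, 2 or 3 it was 0.0639, 0.128 and 0.121. MRPS17 overlaps NIPSNAP2 on the same strand, which had 272.5% of its mean count and was not called (log2 fold change -0.25).

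The gene with the largest fall was MRPS24, the mitochondrial counterpart of the bacterial protein S3, which takes part in guiding the mRNA into the small subunit. It had 20.8, 20.3 and 11.7 normalised CPM with CMR and 37.7, 36.0 and 26.6 in control (log2 fold change -0.93, SE 0.25; adjusted p = 0.0225 in edgeR). The third library of each group was the lowest of its group, and the groups did not overlap. The call was lost without control replicate 1 (edgeR adjusted p = 0.0763) or control replicate 2 (0.0710). MRPL28, homologue of the bacterial protein L28, had 48.8, 43.0 and 39.9 with CMR and 76.1, 70.9 and 70.7 in control (log2 fold change -0.72, SE 0.11; adjusted p = 0.00192 in edgeR). It had the lowest adjusted p among genes that fell, and overlaps TMEM8A on the same strand (41.3% of its mean count, log2 fold change -0.63, edgeR adjusted p = 0.0632, 7.3% of exonic bases shared). MRPS25, a mitochondria-specific protein, had 30.1, 29.5 and 20.0 with CMR and 41.4, 38.6 and 48.4 in control (log2 fold change -0.69, SE 0.18; adjusted p = 0.0218 in edgeR). Its call was lost without control replicate 1 (edgeR adjusted p = 0.0566) or control replicate 3 (0.0762), and 22.2% of its exonic bases are shared with NR2C2 on the other strand (log2 fold change 1.20, with edgeR adjusted p = 0.137).

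MRPL36, MRPL35 and MRPS21 are small proteins with bacterial homologues, and all 3 fell. MRPL36 had 19.5, 15.2 and 14.4 normalised CPM with CMR and 26.1, 24.8 and 25.1 in control (log2 fold change -0.63, SE 0.15; adjusted p = 0.0128 in edgeR). MRPL35 had 48.5, 58.7 and 47.7 with CMR and 77.4, 79.8 and 75.6 in control (log2 fold change -0.59, SE 0.11; adjusted p = 0.00502 in edgeR). MRPS21 had 50.7, 46.7 and 44.1 with CMR and 66.3, 65.7 and 67.4 in control (log2 fold change -0.49, SE 0.09; adjusted p = 0.00542 in edgeR). In each of the 3 the lowest control library lay above the highest CMR library. MRPS7, homologue of the bacterial protein S7 of the small-subunit head, had 61.0, 54.8 and 55.9 with CMR and 82.1, 79.7 and 76.3 in control (log2 fold change -0.47, SE 0.09; adjusted p = 0.00552 in edgeR). It shares 6.4% of its exonic bases with GGA3 on the other strand, which had 54.9% of its mean count and also fell (log2 fold change -0.46), and it overlaps MIF4GD, with 15.9% of its mean count (log2 fold change -0.08). MRPL24, homologue of the bacterial protein L24 near the mouth of the exit tunnel, had 45.6, 38.2 and 33.9 with CMR and 59.2, 55.7 and 54.3 in control (log2 fold change -0.52, SE 0.13; adjusted p = 0.0167 in edgeR). That call was lost without CMR replicate 2 (edgeR adjusted p = 0.0553), control replicate 1 (0.0650) or control replicate 2 (0.0516).

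**Figure D4:**
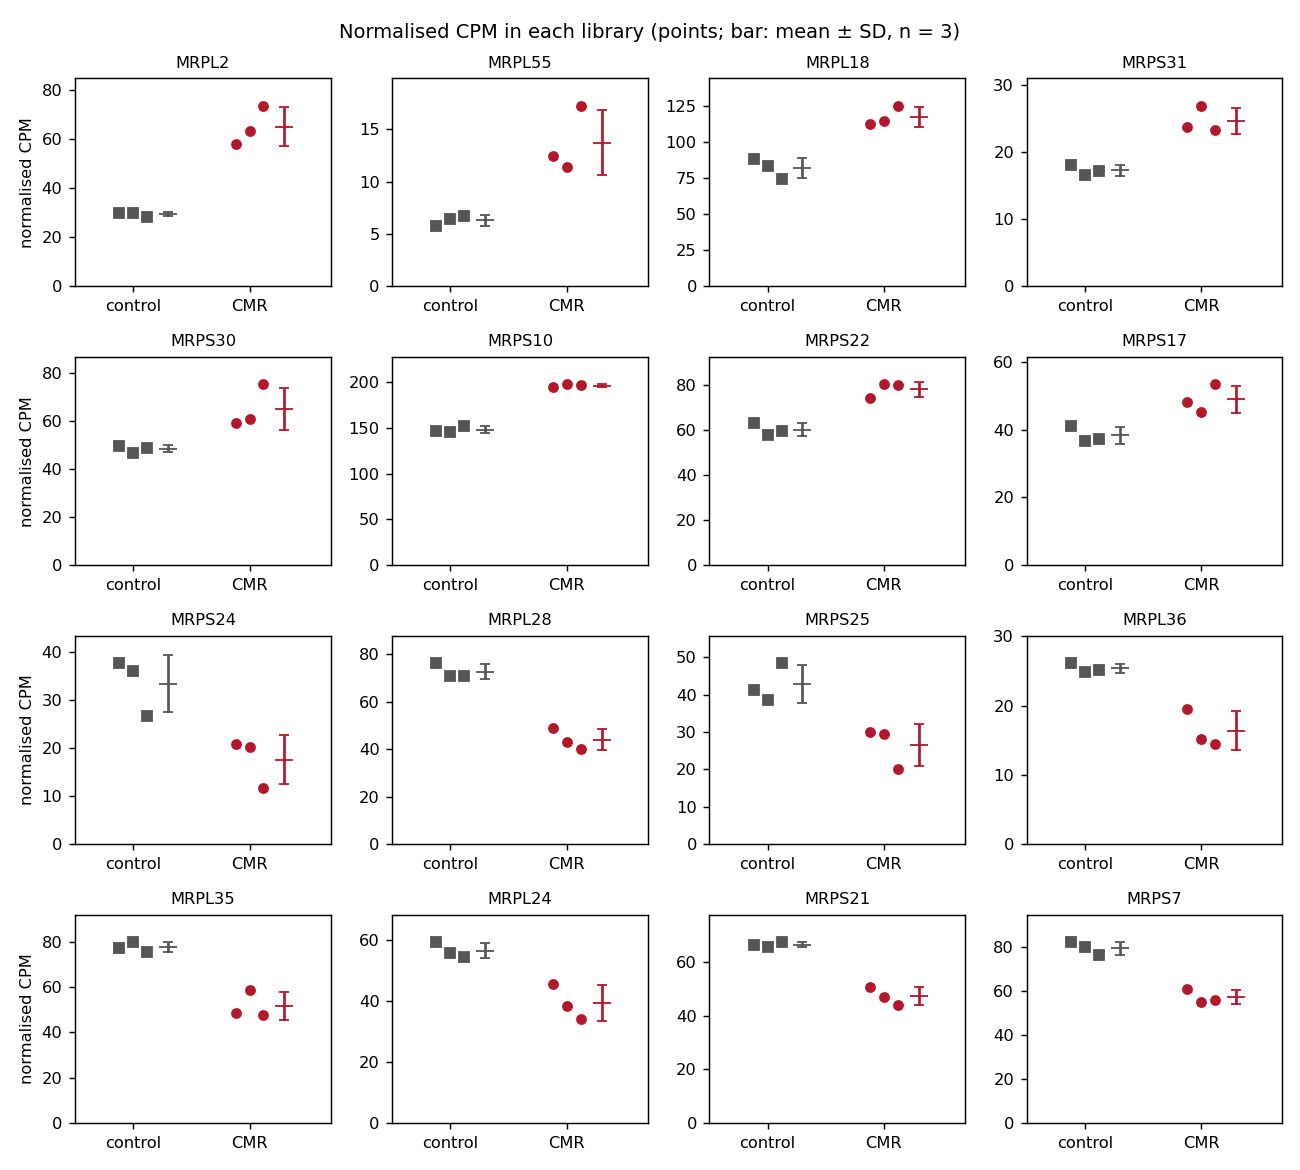
Normalised CPM of the 8 genes that rose most (first 8 panels) and the 8 that fell most (last 8 panels) among called genes whose groups do not overlap; squares are control and circles CMR libraries, with the mean and SD of 3 libraries beside them. In MRPS10 the CMR libraries lie between 195 and 198 and the control libraries between 146 and 152.

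The stalk of the large subunit, which recruits translation factors, is built on MRPL10, MRPL11 and MRPL12. MRPL12, which forms the stalk's mobile part, had 99.2, 91.9 and 97.7 normalised CPM with CMR and 123, 115 and 116 in control (log2 fold change -0.29, SE 0.08; adjusted p = 0.0247 in edgeR). MRPL11, at the stalk base, had 55.2, 48.0 and 46.6 with CMR and 69.2, 62.6 and 58.4 in control (log2 fold change -0.34, SE 0.11; adjusted p = 0.0478 in edgeR). Neither pair of groups overlapped, yet both calls were fragile. That of MRPL12 was lost without CMR replicate 2 (edgeR adjusted p = 0.0826) or control replicate 1, 2 or 3 (0.107, 0.0695 and 0.0677). That of MRPL11 was lost without CMR replicate 2 or 3 (edgeR adjusted p = 0.132 and 0.105) or control replicate 1, 2 or 3 (0.171, 0.115 and 0.0658). MRPL10, which anchors the copies of MRPL12, went the other way in value: 45.9, 66.1 and 84.4 with CMR and 48.1, 44.2 and 45.2 in control. It was not called (log2 fold change 0.51, SE 0.21; adjusted p = 0.0917 in edgeR), the CMR libraries being far apart, and it was called without CMR replicate 1 (log2 fold change 0.71, with edgeR adjusted p = 0.00755).

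MRPS18A, MRPS18B and MRPS18C are paralogs that all descend from the bacterial protein S18. MRPS18B was the most abundant per length, at 37.8 ± 3.64 FPKM with CMR and 45.2 ± 2.52 in control (SD, n = 3). MRPS18A averaged 21.6 ± 1.58 and 25.4 ± 1.99 FPKM, and MRPS18C 10.7 ± 1.43 and 9.04 ± 0.555. In normalised CPM, MRPS18A had 36.1, 32.4 and 33.3 with CMR and 38.4, 34.6 and 40.7 in control, and MRPS18B had 88.5, 77 and 78.1 against 93.8, 95.9 and 86.5, so both pairs of groups overlapped. MRPS18C had 60.6, 56.7 and 74.3 with CMR and 47.9, 51 and 54.3 in control, and its groups did not overlap. None of the 3 was called by edgeR or DESeq2, and 1, MRPS18C, had an unadjusted edgeR p under 0.05. With upper-quartile scaling MRPS18B was called lower (adjusted p = 0.0429 in edgeR). The log2 fold changes were -0.16 ± 0.11, -0.18 ± 0.09 and 0.32 ± 0.13 SE (edgeR adjusted p = 0.298, 0.176 and 0.0837). MRPS18C shares 40.2% of its exonic bases with ABRAXAS1 on the other strand, which had 17.2% of its mean count and a log2 fold change of 0.17.

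Grouped by ancestry, the 48 genes with a bacterial homologue had 8 higher and 12 lower (41.7% called), and the 30 mitochondria-specific genes had 4 higher and 3 lower (23.3%), where 38.6% of all genes tested were called. The share of the conserved genes was thus near that of all genes. Among genes with an MRPL symbol, 13 of 30 conserved and 2 of 19 mitochondria-specific genes were called. Those 2, MRPL39 and MRPL40, both fell (log2 fold change -0.41 and -0.36, edgeR adjusted p = 0.0188 and 0.0337). No mitochondria-specific MRPL gene was called higher by edgeR or DESeq2, or had an unadjusted edgeR p under 0.05 with a rise. MRPS30, mitochondria-specific and in the large subunit by structure, was called higher (log2 fold change 0.43, edgeR adjusted p = 0.0253). Without 1 library at a time, MRPL39 kept its call in 3 of 6 fits and MRPL40 in 1 of 6. Among genes with an MRPS symbol, MRPS30 included, 7 of 18 conserved and 5 of 11 mitochondria-specific genes were called. The differences between these groups were not tested. The structural groups that follow are small, and their counts stand beside the same 38.6% over all genes. At the polypeptide exit 1 of 8 genes rose (MRPL47, log2 fold change 0.27, edgeR adjusted p = 0.0377) and 3 fell (MRPL23, MRPL24 and MRPL39). MRPL23 kept its call in 2 of 6 fits without 1 library. MRPL47 kept its call in 1 of 6 such fits and under 1 of 3 other scalings, and it overlaps ACTL6A on the other strand (log2 fold change -0.11). At the central protuberance 2 of 7 rose (MRPL55 and MRPL18) and 1 fell (MRPL40, whose span overlaps HIRA and C22orf39 on the other strand, with no exonic base shared). Of 13 genes known for inherited combined oxidative phosphorylation deficiency, 2 rose (MRPS22 and MRPS23) and 4 fell (MRPS25, MRPL24, MRPS7 and MRPL12). MRPS23 kept its call in 1 of 6 fits without 1 library and in 4 of all 15 alternatives.

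Levels per length differed 24.4-fold across the family, from 3.67 to 89.4 FPKM (mean over 6 libraries), although the ribosome holds most of these proteins in single copies. The authors' FPKM follow the summed length of all annotated exons of a gene in 68 of the 78 genes (within 5%), so genes with long annotated exons read low. The highest was MRPL12, which the ribosome holds in several copies, at 78 ± 3.93 FPKM with CMR and 101 ± 4.02 in control (SD, n = 3). The next were MRPS35 (82.5 ± 15.4 and 69.7 ± 2.57), MRPS10 (76.4 ± 0.94 and 60.9 ± 1.35) and MRPL15 (60.3 ± 1.79 and 72.5 ± 0.96). MRPS35, a mitochondria-specific protein, had overlapping groups in normalised CPM, 191, 159 and 235 with CMR and 154, 162 and 151 in control (log2 fold change 0.32, SE 0.14; adjusted p = 0.113 in edgeR; 0.0305 without CMR replicate 2). MRPL15, homologue of the bacterial protein L15, had 88.6, 88.2 and 86.5 with CMR and 101, 101 and 98.8 in control. Its groups did not overlap, yet it was not called (log2 fold change -0.19, SE 0.07; adjusted p = 0.0851 in edgeR). Upper-quartile scaling, library totals, a filter at 1 FPKM and both limma fits called it lower.

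The lowest 4 per length were MRPL42, MRPL46, MRPL55 and MRPL57. MRPL42, whose annotated exons cover 16393 bases, had 2.95 ± 0.14 FPKM with CMR and 4.38 ± 2.04 in control. In normalised CPM it had 55.4, 59.4 and 63.2 with CMR and 58.9, 128 and 63.0 in control, so control replicate 2 alone stood high (log2 fold change -0.49, SE 0.29; adjusted p = 0.229 in edgeR; -0.04 without that library). MRPL46 had 36.0, 41.3 and 29.2 with CMR and 30.8, 27.3 and 31.7 in control (log2 fold change 0.24, SE 0.15; adjusted p = 0.246 in edgeR). MRPL57 had 14.6, 11.7 and 12 against 12, 12.2 and 12 (log2 fold change 0.08, SE 0.14; adjusted p = 0.685 in edgeR). Both had overlapping groups. The order of the family hardly moved: mean FPKM in control and with CMR correlated across the 78 genes with Spearman's rho of 0.944, a description over genes that share libraries and lengths. The log2 fold change was nearly unrelated to mean FPKM (rho = 0.05) and weakly related to exonic length (rho = 0.12) and mean count (rho = 0.22).

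**Figure D5:**
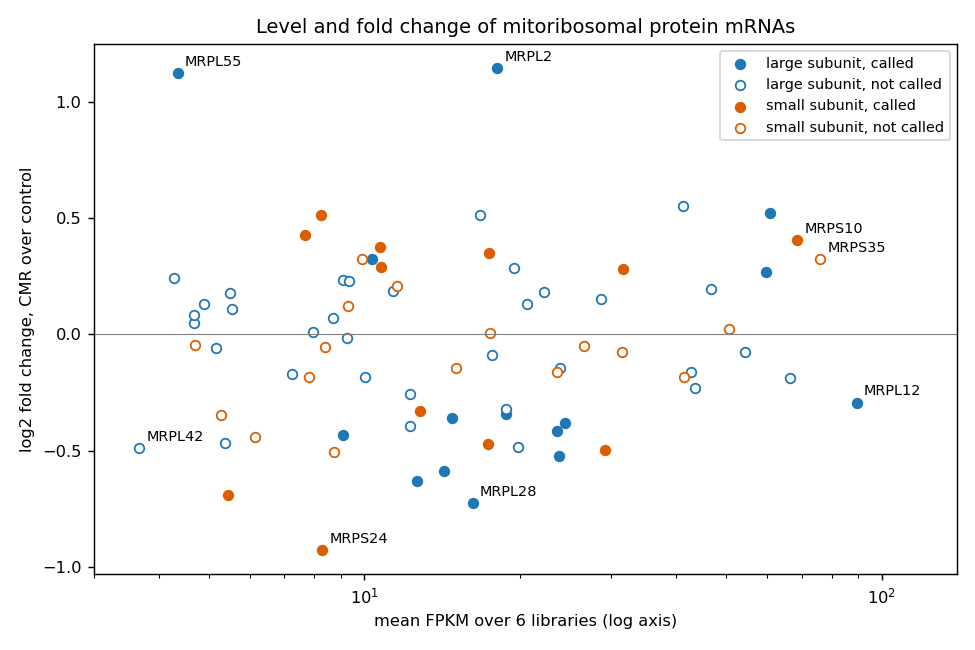
Mean FPKM over the 6 libraries (log axis) against the log2 fold change, CMR over control, for the 78 mitoribosomal protein genes; filled points have an edgeR adjusted p under 0.05. Calls occur from 4.35 FPKM (MRPL55) to 89.4 FPKM (MRPL12), and the 2 genes past a log2 fold change of 1 lie at 4.35 and 18.1 FPKM.

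A few genes varied more within a group than between groups; 4 of the 78 had a spread of more than 2-fold within a group, and 62 stayed within 1.5-fold in both groups. These 4 were chosen after their values were seen. MRPL49, a mitochondria-specific large-subunit protein, had 84.2, 37.9 and 65.8 normalised CPM with CMR and 138, 33.4 and 28.3 in control (log2 fold change -0.09, SE 0.62; adjusted p = 0.927 in edgeR). Control replicate 1 held over 4 times the level of the other 2 control libraries. MRPL49 overlaps SYVN1 on the other strand, which had 139% of its mean count and rose (log2 fold change 2.10). MRPS2, homologue of the bacterial protein S2, had 9.02, 26.1 and 28.4 with CMR and 32.5, 27.4 and 30.4 in control, with CMR replicate 1 alone low (log2 fold change -0.51, SE 0.38; adjusted p = 0.344 in edgeR). MRPL30 had 62.9, 32.2 and 72.4 with CMR and 58.7, 51.7 and 32.1 in control (log2 fold change 0.23, SE 0.33; adjusted p = 0.620 in edgeR). MRPL42, given above, was the other. What set these single libraries apart was not tested.

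Of 5 proteins of the mitochondrial ribosome without an MRP symbol, 1 rose. DAP3, the GTP-binding protein of the small subunit, had 167, 184 and 151 normalised CPM with CMR and 122, 115 and 144 in control (log2 fold change 0.39, SE 0.12; adjusted p = 0.0340 in edgeR). That call was lost without CMR replicate 1 or 2 (edgeR adjusted p = 0.0601 and 0.106) or control replicate 1 or 2 (0.111 and 0.118), and 4.2% of its exonic bases are shared with YY1AP1 (log2 fold change 0.29). PTCD3, a pentatricopeptide repeat protein of the small subunit, had a log2 fold change of -0.10, AURKAIP1 of -0.06, CHCHD1 of -0.25 and GADD45GIP1 of -0.37, none of them called (edgeR adjusted p = 0.426, 0.754, 0.161 and 0.124).

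The other genes of mitochondrial translation were listed as 79 symbols, older synonyms included, of which 69 were found, all of them tested. These lists also hold DAP3 and the other 4 proteins just given. In all 14 rose and 14 fell (40.6% called), close to the 38.6% over all genes tested (20.5% higher and 18.1% lower), with a median log2 fold change of -0.03. The counts of the single lists below are to be read against the same shares. Of the 14 genes listed for translation factors 4 rose. They were MTRF1L, a release factor (log2 fold change 0.81, SE 0.16; adjusted p = 0.00665 in edgeR), GFM2, which recycles the ribosome (0.71 ± 0.15 SE), GUF1, an elongation factor (0.45 ± 0.11 SE), and LACTB2, listed with them but an endoribonuclease (0.42 ± 0.14 SE). The call of GUF1 was lost without CMR replicate 2 or control replicate 1 or 3 (edgeR adjusted p = 0.0523, 0.0673 and 0.0505), and that of LACTB2 without any 1 of the 6 libraries (edgeR adjusted p = 0.0548 to 0.112). GFM2 overlaps NSA2, and GUF1 overlaps GNPDA2.

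Of 24 factors for assembly of the ribosome and its RNAs, 4 rose and 6 fell. NSUN4, a methyltransferase of the ribosomal RNA, had 27.8, 56.5 and 72.0 normalised CPM with CMR and 23.5, 25.3 and 25.2 in control (log2 fold change 1.08, SE 0.31; adjusted p = 0.0305 in edgeR). All CMR libraries lay above control, but the call held without CMR replicate 1 alone. Without CMR replicate 2 or 3 or control replicate 1, 2 or 3 the edgeR adjusted p was 0.0862, 0.0901, 0.0917, 0.0800 and 0.0800. MPV17L2, an assembly factor, rose (log2 fold change 0.83, SE 0.16; adjusted p = 0.00573 in edgeR), whereas MTERF3, which acts in ribosome assembly, and TFB1M, which methylates the small-subunit RNA and overlaps TIAM2, fell (log2 fold change -0.65 ± 0.11 and -0.62 ± 0.12 SE).

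Of 19 genes of mitochondrial RNA synthesis and processing, 5 rose and 5 fell, and 2 of these had larger changes than any ribosomal protein. SUPV3L1, the helicase of the mitochondrial RNA degradosome, had 161, 187 and 252 normalised CPM with CMR and 59.1, 58.9 and 61.1 in control (log2 fold change 1.74, SE 0.16; adjusted p = 0.00034 in edgeR). TFB2M, a transcription factor of mitochondrial DNA, had 65, 85.1 and 107 with CMR and 25.5, 28.1 and 26.6 in control (log2 fold change 1.68, SE 0.18; adjusted p = 0.00059 in edgeR). In both every CMR library was more than 2-fold above every control library. REXO2, an oligoribonuclease, rose (log2 fold change 0.90, SE 0.21; adjusted p = 0.0137 in edgeR; 0.0542 without control replicate 1). KIAA0391, the nuclease subunit of mitochondrial RNase P, fell (log2 fold change -0.84, SE 0.24; adjusted p = 0.0280 in edgeR; 0.0614, 0.0771 and 0.0767 without control replicate 1, 2 or 3), and it shares 40.9% of its exonic bases with AL121594 on the same strand, which had a log2 fold change of -0.47, and also overlaps PPP2R3C.

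Of 7 translation activators and inner-membrane factors, 3 fell. C1QBP, a matrix protein needed for mitochondrial translation, had 148, 145 and 145 normalised CPM with CMR and 236, 241 and 235 in control (log2 fold change -0.70, SE 0.07; adjusted p = 0.000383 in edgeR), with the libraries of each group close together. It overlaps RPAIN, which rose. LETM1, an inner-membrane ion exchanger, fell (log2 fold change -0.46, SE 0.09; adjusted p = 0.00706 in edgeR). MTERF2, which binds mitochondrial DNA, had 9.83, 6.83 and 4.35 with CMR and 17.0, 13.0 and 16.1 in control (log2 fold change -1.13, SE 0.29; adjusted p = 0.0200 in edgeR). Its call was lost without CMR replicate 2 or control replicate 1 or 3 (edgeR adjusted p = 0.0640, 0.0655 and 0.0582), and it overlaps TMEM263 on the other strand, which rose (log2 fold change 2.84).

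Set beside the 34.6% called here, 13.4% of 82 tested cytosolic ribosomal protein genes were called, 3 higher and 8 lower, with a median log2 fold change of -0.02 and a median size of 0.13. Of 47 tested nuclear genes for subunits of complexes I and IV, 1 was higher and 10 lower, with a median log2 fold change of -0.21. The share called of these 47 was 23.4%, where 38.6% of all genes tested were called (20.5% higher and 18.1% lower). The 13 mRNAs of the mitochondrial genome, which the mitochondrial ribosome translates, were all called lower, with log2 fold changes from -0.67 to -0.21. The differences between these lists and the mitoribosomal genes were not tested.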

How the data were processed

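Poly(A) RNA of 6 libraries was profiled by paired-end sequencing, per the labels' protocols. The deposited table gives, per the file headers, whole-number counts, not normalised, and FPKM values that the authors scaled to gene length and library size. How reads were counted, and whether by strand, is not stated in these sources. The tools named are StringTie 1.3.0, HISAT2 2.0 and Bowtie 0.12.2, and the only build is mm8, a mouse genome, per the submitters' processing notes. The identifiers, however, are those of human genes. Of 58552 genes found in GENCODE release 29, 81.2% have the same coordinates there, so positions are given as GRCh38. Of the 78 mitoribosomal genes, 31 have the same chromosome, start and end there. Exon lengths and exonic overlaps from that release may thus differ from the authors' gene models. Of the value columns, 0 belonged to no sample.

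Counts were tested with edgeR 4.0.16 (R 4.3.3): TMM scaling, the filterByExpr filter with 10 counts per library and 15 in total, then the quasi-likelihood test, adjusted by Benjamini-Hochberg over 19200 genes. Called means an adjusted p under 0.05. Normalised CPM used the same factors. Library totals and 3 libraries per group set the precision. Span overlaps used the deposited coordinates, exonic overlaps GENCODE release 29; an overlap is named where the other gene had at least 10% of the gene's mean count, except 1 that is not reported here. Values in all libraries are given for the 8 called genes that rose most and the 8 that fell most, groups not overlapping, the 4 highest and 4 lowest in FPKM, the stalk and the S18 paralogs; up to 4 called genes are named per pathway list. Genes outside this rule were chosen after their values were seen. The genes, lists and rules were chosen with earlier results of these data known. Alternatives were other scalings and filters, DESeq2 1.42.0, limma 3.58.1 on FPKM, the replicate number as a block, subunits by structure and leaving out each library. Figures were drawn with matplotlib 3.10.9.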

Additional observations from a re-analysis of the deposited data

How the results depend on the processing

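Precision was limited by 3 libraries per group. The counts are genes higher and lower with CMR by each test, and values are log2 fold changes. Upper-quartile scaling gave 5 higher and 26 lower of the 78 genes (large subunit 3 and 18, small subunit 2 and 8), 9 higher among the other translation genes, and medians of -0.18 for all, -0.19 for the large and -0.18 for the small subunit. Library totals without a composition factor gave 7 higher (3 large, 4 small) and medians of -0.12 for all and -0.13 for the large subunit. Without a filter on low counts 7 were higher (3 large, 4 small), where 21.1% of all genes were called. With limma on log2(FPKM + 1) 25 were lower, with 3 large-subunit genes higher and 19 lower, a median of -0.11 and 9 other translation genes higher. A pseudocount of 0.1 gave 24 lower, 3 large-subunit genes higher and 18 lower, a median of -0.12 and 9 other genes higher. These limma fits covered 11711 genes, of which 55.1% and 54.4% were called. Median-of-ratios scaling, DESeq2, a filter at 1 FPKM and subunits by structure moved no count by over 1.5 times.

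With the replicate number as a block 7 were higher (3 large, 4 small), the large-subunit median was -0.014 and 9 other translation genes were lower. The labels give no source for a pairing. Same-numbered libraries correlated in their deviations from the group means with r of 0.034 to 0.052, and the best other r was -0.01. Deviations from a group mean cancel out within the group, so positive values for some pairs force negative values for others. These small values therefore cannot decide whether libraries were paired.

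Leaving out 1 library gave 4 to 13 genes higher and 5 to 18 lower, with 3 to 7 and 3 to 12 for the large subunit and 1 to 7 and 2 to 6 for the small subunit. The medians ran from -0.094 to 0.024 for all, -0.12 to -0.011 for the large and -0.085 to 0.035 for the small subunit, and the other translation genes had 7 to 13 higher and 7 to 15 lower. Of the named genes, 2 that were not called changed sign: MRPL57 (-0.047 with upper-quartile scaling, -0.0013 and -0.0029 with limma at pseudocounts of 1 and 0.1, and -0.028 to 0.14 when 1 library was left out, lowest without CMR replicate 1) and AURKAIP1 (-0.14 to 0.049 when 1 library was left out, highest without CMR replicate 2). The cause was not tested. Over the named genes and alternatives, a call was lost 74 times and gained 10 times, and 616 values kept their side of the threshold and their sign.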

Other observations

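Some genes of the mitochondrial ribosome start near the start of a neighbour on the other strand. The share of all genes tested with such a neighbour was not computed. A tested gene on the opposite strand started within 1000 bases of 30 of the 78 genes, in 30 pairs by the deposited coordinates, with MRPS11 and MRPL46 facing each other. In 13 of the 30 pairs the neighbour was called, where 38.6% of all genes tested were called. Across the 30 pairs the log2 fold changes of the ribosomal gene and its neighbour had Pearson's r of 0.29 and Spearman's rho of 0.38, a description over genes that share the same 6 libraries. In 1 pair both genes were called: MRPS7 and GGA3, with log2 fold changes of -0.47 and -0.46. MRPL18 and TCP1 had 0.52 and 0.29, and MRPL13 and MTBP 0.32 and 0.36, the neighbour not called in either pair. Some called neighbours had log2 fold changes far from that of an uncalled ribosomal gene. SKA3, a mitotic spindle gene 107 bases from the start of MRPL57, fell (log2 fold change -1.42, against 0.08 for MRPL57). ZNF189, 255 bases from MRPL50, rose (0.88, against -0.17), and EME1, 24 bases from MRPL27, fell (-0.92, against -0.18). MRPS11 of the small and MRPL46 of the large subunit start 64 bases apart on chromosome 15 and had log2 fold changes of -0.04 and 0.24, neither called. These neighbours were chosen after their values were seen.

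The table also lists 75 pseudogenes with the name of one of these genes, of which 22 had a count and 5 were tested. Only MRPS31P5, MRPL45P2 and MRPS31P4 had at least 10% of the mean count of the gene they are named for. MRPL45P2 had 6.71, 7.24 and 7.15 normalised CPM with CMR and 3.42, 5.49 and 4.34 in control (log2 fold change 0.67, edgeR adjusted p = 0.0396), while MRPL45 itself was at 0.13 on that scale (edgeR adjusted p = 0.343).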
